A study of Mus musculus with 59 samples.

Results

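The carnitine shuttle carries long-chain fatty acids into mitochondria, and 7 genes stand for it here: *Slc22a5*, *Cpt1a*, *Cpt1b*, *Slc25a20*, *Cpt2*, *Crat* and *Crot*. Binding of BCL6, PPARα and PPARδ around these genes was read from 7 ChIP-seq peak lists of mouse liver. A peak was taken as belonging to a gene when its center lay inside the gene, or when that gene had the nearest transcription start site (TSS) of any protein-coding RefSeq gene within 100 kb. Of 102931 peaks in the 7 lists, 141 met this rule. Peaks whose centers lay within 200 bp of the next were joined into sites, which gave 35 sites at the 7 genes among 40474 sites in the genome. All 7 genes had a site, as did 52.6% of 21774 protein-coding genes.

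The livers came from male C57BL/6 mice. BCL6, PPARα and PPARδ were each immunoprecipitated from wild type animals that were either fed *ad lib* or fasted overnight. A further BCL6 list came from fed *Bcl6* fl/fl animals, which carry floxed *Bcl6* alleles without Cre and served the study as controls for its liver knockout. Each list combined 3 replicates, so 21 of the 59 samples stand behind the lists, and the other samples were not analysed here. The labels give no age. The lists hold positions only, with no count, height or p-value for a peak or a replicate. A site was therefore called or not called in a list, no error can be put on a call, and a site missing from a list may lie just under the authors' threshold. The fed and fasted states could differ in depth, which is unknown, so counts were read beside the same count over all sites or all genes, and no test was made. Peaks were found at 7 of 7 genes that define liver, with between 1 and 17 sites each, and at 2 of 7 genes of other tissues (*Ins2* and *Myl2*, 1 site each).

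Long-chain fatty acids cannot cross the inner mitochondrial membrane as CoA esters. *Slc22a5* encodes OCTN2, which takes up carnitine across the plasma membrane. The carnitine palmitoyltransferases CPT1A, the liver form, and CPT1B, the muscle form, make acylcarnitine at the outer membrane, and this step is inhibited by malonyl-CoA. The translocase encoded by *Slc25a20* exchanges acylcarnitine for free carnitine across the inner membrane, and CPT2 on its inner face restores acyl-CoA for β-oxidation. Carnitine acetyltransferase (*Crat*) works on acetyl and other short groups, and carnitine octanoyltransferase (*Crot*) on the medium-chain products of peroxisomes. PPARα is a nuclear receptor that activates fatty acid oxidation genes in the fasted liver, PPARδ is a related receptor, and BCL6 is a zinc finger repressor. PPARs bind DNA with RXR at a DR1 element, a direct repeat of AGGTCA with 1 base between the copies.

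DR1 matches were searched because they are the sequence a PPAR would be read from. The letters AGGTCANAGGTCA were compared on both strands with the 200 bp around each site center, and up to 2 mismatches were accepted. Of the 35 sites, 9 held such a match, against 13.1% of all sites. With 1 mismatch accepted, 1 site held one, against 3.06% of all sites. Windows of the same size placed 2000 bp to one side of all sites held a match with up to 2 mismatches in 3.01%, to be set beside the 13.1%. These 9 matches are given below 5′ to 3′ with the matching 13 bases in capitals, because they show how far each departs from the repeat. Each lay between 3 and 76 bp from its site's center.
*Slc22a5*, 12.6 kb upstream of the TSS: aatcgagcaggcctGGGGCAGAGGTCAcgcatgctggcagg
*Slc22a5*, intron 1: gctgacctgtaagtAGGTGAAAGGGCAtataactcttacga
*Cpt1a*, intron 1: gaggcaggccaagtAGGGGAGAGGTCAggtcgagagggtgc
*Cpt1b*, upstream of the TSS: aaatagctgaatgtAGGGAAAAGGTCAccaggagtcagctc
*Slc25a20*, at the TSS: atgtAGGTGAAAGGTCGgcgg
*Slc25a20*, intron 1: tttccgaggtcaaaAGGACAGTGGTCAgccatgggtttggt
*Crot*, 31.5 kb upstream: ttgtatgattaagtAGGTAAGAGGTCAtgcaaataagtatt
*Crot*, 13.2 kb upstream: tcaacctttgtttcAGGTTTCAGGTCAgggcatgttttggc
*Crot*, intron 9: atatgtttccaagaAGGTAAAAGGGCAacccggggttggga

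In mm10 these stretches lie at chr11:53904359-53904399 and chr11:53889271-53889311 for *Slc22a5*, chr19:3336644-3336684 for *Cpt1a*, chr15:89426083-89426123 for *Cpt1b*, chr9:108662138-108662158 and chr9:108663817-108663857 for *Slc25a20*, and chr5:9028582-9028622, chr5:9010342-9010382 and chr5:8976906-8976946 for *Crot*. All read on the plus strand of the chromosome except the intronic *Slc25a20* match, which reads on the minus strand. The match 31.5 kb upstream of *Crot* had 1 mismatch and the other 8 had 2. In 5 of the 9 the copy at the 3′ end was intact, and in 0 of 9 the copy at the 5′ end was. Over the 5299 sites of the genome with a match, the copies were intact in 34.4% and 28.0%. Each of the 9 sites carried PPARα, so a match stood at 9 of 31 PPARα sites and at 0 of the 4 others. All sites with PPARα held one in 14.0% and those without it in 9.04%. Among the 16 sites with BCL6 in C57BL/6 livers, 2 held a DR1 match, against 11.9% of all BCL6 sites.

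The BCL6 consensus TTCCTAGAA, searched in the same windows with 1 mismatch accepted, was found at 1 of 35 sites, against 10.8% of all sites and 7.01% of the shifted windows. That match lay in intron 9 of *Crot* and shared 1 base with the DR1 match there. No BCL6 list called this site, so 0 of 16 BCL6 sites at shuttle genes held these letters, against 15.3% of BCL6 sites in the genome.

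**Figure D1:**
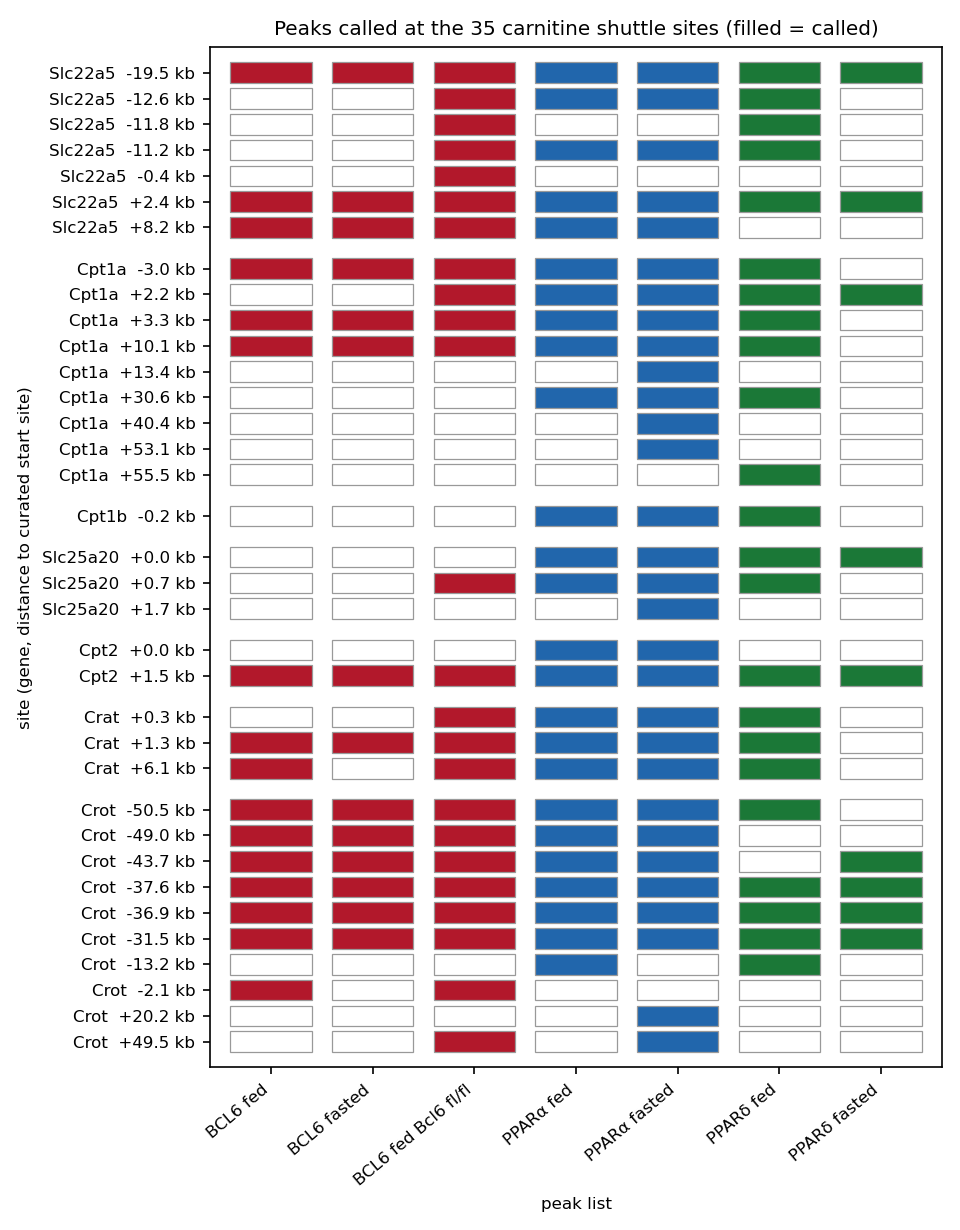
Calls at each of the 35 sites (rows, by gene and distance from the curated TSS in kb) in each of the 7 peak lists (columns). A filled cell is a called peak. The 6 rows filled in every list belong to *Slc22a5*, *Cpt2* and *Crot*, and no fasted BCL6 cell is filled without the fed one.

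*Slc22a5*, the carnitine transporter gene (chr11:53864542-53891796, minus strand), had 7 sites. The fed C57BL/6 BCL6 list called 3 of them, the fasted list 3 and the *Bcl6* fl/fl list 7. PPARα was called at 5 in fed and 5 in fasted livers, and PPARδ at 5 in fed and 2 in fasted livers. PPARα thus stayed the same in number, and fewer PPARδ peaks were called after fasting. The sites called in every list lay 2.4 kb into intron 1 (chr11:53889170-53889415) and 19.5 kb upstream of the TSS (chr11:53911041-53911292). For each factor the centers of its fed and fasted C57BL/6 peaks were averaged. These mean centers of BCL6 and PPARα were 2.0 bp apart at the first site and 0.5 bp at the second. The single peak centers of all lists spread over 40 bp at the first and 44 bp at the second. A site 8.2 kb downstream of the TSS, in intron 2, carried BCL6 and PPARα in both states and no PPARδ. Between 11.2 and 12.6 kb upstream stood a cluster of 3 sites where BCL6 was called in *Bcl6* fl/fl livers and in neither C57BL/6 list. The outer sites of this cluster carried PPARα in both states and fed PPARδ, and the middle one carried fed PPARδ alone of the PPARs. The promoter site 0.4 kb upstream was called only for BCL6 in *Bcl6* fl/fl livers.

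*Cpt1a*, the gene of the rate-limiting enzyme of the shuttle in liver (chr19:3322326-3385735, plus strand), had 9 sites. BCL6 was called at 3 in fed and at 3 in fasted livers, and at 4 in fed *Bcl6* fl/fl livers. The fed list held 5 PPARα peaks and the fasted list 8, while for PPARδ the numbers were 6 and 1. BCL6, PPARα and fed PPARδ were called together 3.0 kb upstream (chr19:3320187-3320441), and 3.3 kb (chr19:3326460-3326740) and 10.1 kb (chr19:3333054-3333584) downstream of the TSS, both in intron 1. None of these 3 sites was in the fasted PPARδ list. At the intron 1 site 10.1 kb downstream the peak centers were spread over 318 bp, the widest of the 35 sites. It lay 433 bp upstream of the start of a further RefSeq model of the gene, which made it a promoter site. The fasted PPARδ peak of *Cpt1a* stood 2.2 kb downstream (chr19:3325384-3325618), where PPARα was called in both states and BCL6 only in *Bcl6* fl/fl livers.

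The other *Cpt1a* sites lay deeper in the gene and carried no BCL6 in any list. A site in intron 3, 30.6 kb downstream, had PPARα in both states and fed PPARδ. PPARα was called only after fasting in intron 1 at 13.4 kb, in intron 6 at 40.4 kb and in intron 13 at 53.1 kb. The last site, in intron 15, was called only for fed PPARδ. The sites in introns 13 and 15 are nearer to the TSS of *Tesmin*, 12468 and 10090 bp away, and count for *Cpt1a* because they lie within it. No shuttle gene other than *Cpt1a* had as many sites where PPARα was called in fasted livers alone.

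*Cpt1b*, the muscle isoform (chr15:89416405-89425862, minus strand), had 1 site, 246 bp upstream of its TSS in the gap between *Cpt1b* and *Chkb* (chr15:89425970-89426236). PPARα was called there in both states and PPARδ in fed livers. No BCL6 list called it. The DR1 match of this site, AGGGAAAAGGTCA, was 5 bp from the site center.

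*Slc25a20*, the translocase gene (chr9:108662136-108684642, plus strand), had 3 sites, all within 1675 bp of its TSS. The site at the TSS (chr9:108662014-108662270) was called for PPARα and PPARδ in both states and in no BCL6 list. The second, 650 bp downstream in intron 1 (chr9:108662644-108662920), had PPARα in both states, fed PPARδ, and BCL6 in *Bcl6* fl/fl livers only. The third, also in intron 1, was called for PPARα in fasted livers alone. With *Cpt1b*, this gene had no BCL6 peak in either C57BL/6 list.

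*Cpt2*, the inner membrane transferase gene (chr4:107903982-107923589, minus strand), had 2 sites. The site at its TSS (chr4:107923462-107923710), in exon 1, was called for PPARα in both states and for nothing else. The site 1.5 kb downstream in intron 1 (chr4:107921917-107922215) was called in all 7 lists, with the mean BCL6 and PPARα centers 38.5 bp apart.

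Printed here are 200 bases around 3 of the 6 sites called in every list, 1 from each gene that had such a site, with the closest DR1 match in capitals. For *Slc22a5* and *Crot* the site with the fewest mismatches was taken, and the closest matches of the 3 sites not printed had 3 mismatches each. They are given on the plus strand of mm10 at chr11:53889200-53889399 (*Slc22a5*), chr4:107921970-107922169 (*Cpt2*) and chr5:9028511-9028710 (*Crot*). The capitals hold 2 mismatches for *Slc22a5*, 3 for *Cpt2* and 1 for *Crot*, and the *Cpt2* match reads on the minus strand. A match with up to 3 mismatches was found at 40.3% of all sites, and whether the *Cpt2* match works as an element was not tested.
*Slc22a5* intron 1: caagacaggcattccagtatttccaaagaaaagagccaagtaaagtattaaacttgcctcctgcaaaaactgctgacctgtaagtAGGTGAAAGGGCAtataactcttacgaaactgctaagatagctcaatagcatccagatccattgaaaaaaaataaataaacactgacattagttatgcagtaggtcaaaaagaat
*Cpt2* intron 1: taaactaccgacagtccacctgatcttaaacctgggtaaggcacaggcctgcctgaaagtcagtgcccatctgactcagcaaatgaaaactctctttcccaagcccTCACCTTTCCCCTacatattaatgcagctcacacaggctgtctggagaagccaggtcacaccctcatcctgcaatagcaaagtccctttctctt
*Crot* 31.5 kb upstream: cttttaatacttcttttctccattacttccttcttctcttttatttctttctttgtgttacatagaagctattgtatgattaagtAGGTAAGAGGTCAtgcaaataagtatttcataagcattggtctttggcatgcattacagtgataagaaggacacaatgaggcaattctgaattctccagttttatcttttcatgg

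*Crat*, the acetyltransferase gene (chr2:30400476-30416017, minus strand), had 3 sites, each with PPARα in both states and PPARδ in fed livers only. BCL6 differed between them. In exon 1, 324 bp downstream of the curated TSS (chr2:30415301-30415539), BCL6 was called in *Bcl6* fl/fl livers alone. In intron 1 (chr2:30414290-30414531) it was called in all 3 BCL6 lists. In intron 3, 6.1 kb downstream (chr2:30409510-30409799), both fed BCL6 lists called it and the fasted list did not. That site and the one 2.1 kb upstream of *Crot* were the 2 sites where C57BL/6 BCL6 was called in fed livers only.

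*Crot*, the peroxisomal octanoyltransferase gene (chr5:8966033-8997146, minus strand), had 10 sites, the most of the 7 genes. BCL6 was called at 7 in fed, 6 in fasted and 8 in *Bcl6* fl/fl livers, PPARα at 7 in fed and 8 in fasted livers, and PPARδ at 5 and 4. A cluster of 6 sites lay between 31.5 and 50.5 kb upstream of the TSS, and BCL6 and PPARα were called at each of them in both states and in *Bcl6* fl/fl livers. These 6 sites differed in PPARδ. The sites 31.5 kb (chr5:9028456-9028778), 36.9 kb (chr5:9033863-9034186) and 37.6 kb (chr5:9034541-9034878) upstream had it in both states. The site 50.5 kb upstream had it in fed livers and the one 43.7 kb upstream in fasted livers. The site 49.0 kb upstream had none. The PPARδ site 43.7 kb upstream was the only one of 24 at shuttle genes called in fasted livers alone.

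The remaining *Crot* sites were sparser. The one 2.1 kb upstream was called for fed BCL6 in C57BL/6 and *Bcl6* fl/fl livers and for no PPAR. The one 13.2 kb upstream was called for fed PPARα and fed PPARδ, and no other shuttle site had PPARα in fed livers alone. PPARα was called after fasting in intron 9, and also 49.5 kb downstream inside the neighboring gene *Abcb4*, where BCL6 was called in *Bcl6* fl/fl livers. The next site upstream of the cluster, 58.9 kb from the *Crot* TSS, was nearest to *Tmem243* and was not counted. The reach of 100 kb itself set nothing here, since the farthest site from a curated TSS was 55.5 kb away, inside *Cpt1a*, and a reach of 1 Mb gave the same 35 sites.

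**Figure D2:**
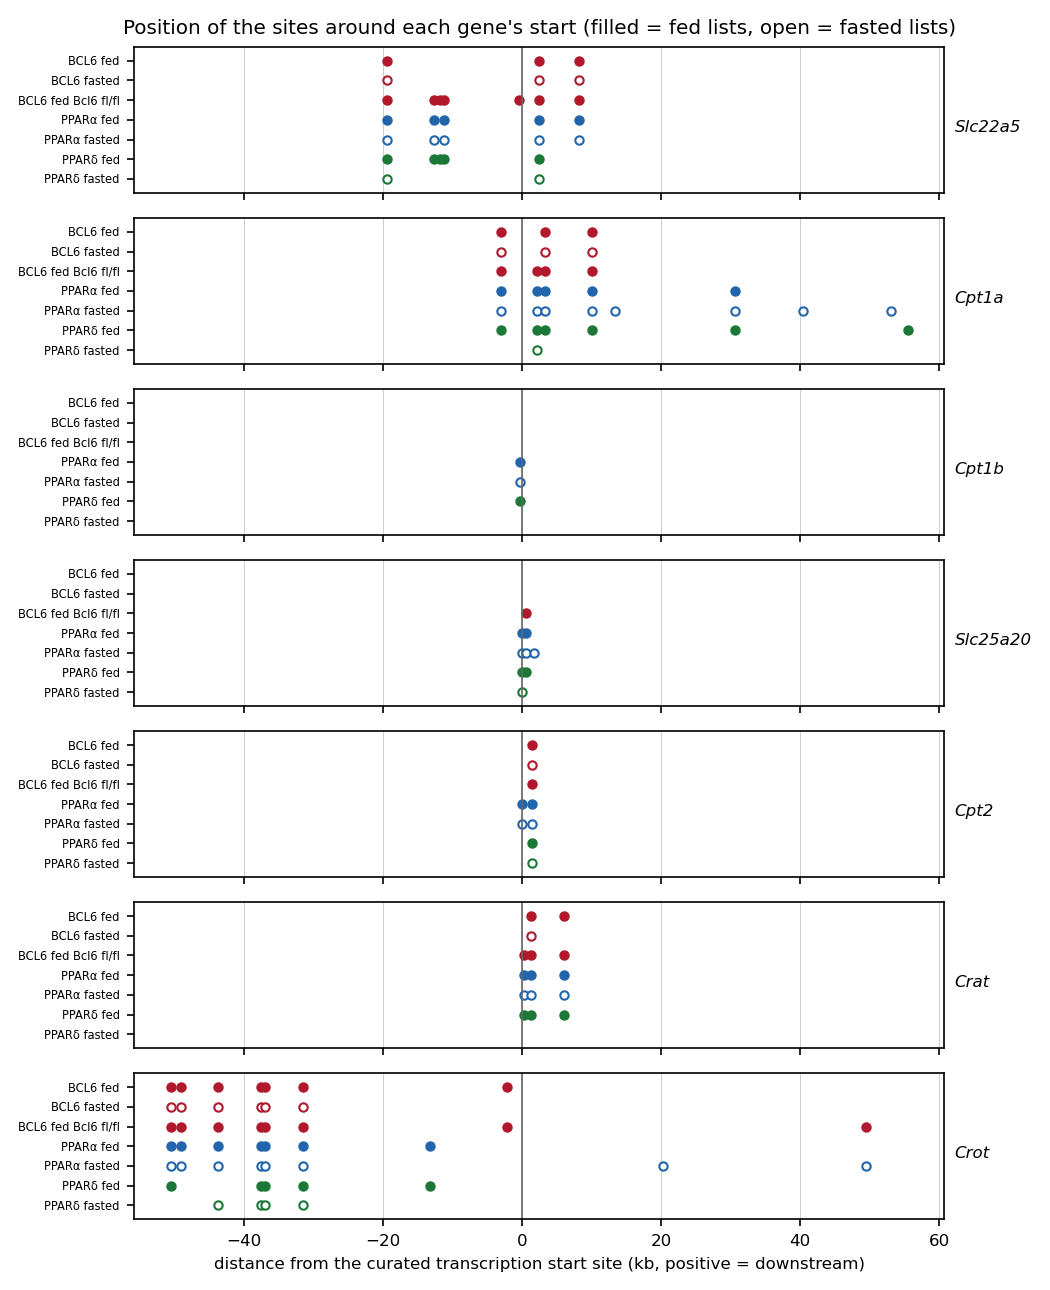
Distance of each called peak's site from the curated TSS of its gene in kb (x axis, positive downstream), in 1 panel per gene with a line per peak list. Filled circles are fed lists and open circles fasted lists. *Slc25a20*, *Cpt2* and *Crat* sites stand within 6.1 kb of the start, while the *Crot* cluster lies between 31.5 and 50.5 kb upstream.

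By gene, the number of sites fell in the order *Crot* 10, *Cpt1a* 9, *Slc22a5* 7, *Crat* 3, *Slc25a20* 3, *Cpt2* 2 and *Cpt1b* 1. The median was 3.0 sites per gene, against 1.0 over all protein-coding genes. As many sites as at *Crot* were found at 3.35% of all genes, and as many as at *Cpt1a* and *Slc22a5* at 4.28% and 7.22%. The extent of genome that the rule gives to a gene differed between members, from 11.5 kb for *Cpt1b* to 103.0 kb for *Crot*, with a median of 42.0 kb against 54.0 kb for all genes. Per 100 kb of that extent *Crat* was the densest, at 19.4 sites, and *Cpt2* the least dense, at 4.76. The 7 genes together had 9.28 sites per 100 kb and all genes 1.85. Mitochondrial β-oxidation genes had 7.59 and peroxisomal β-oxidation genes 10.9, on either side of the shuttle's value.

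Both PPARs had peaks at all 7 genes in fed livers. PPARα peaks stood at 7 of 7 genes in the fed list and 7 of 7 in the fasted list, against 34.3% and 46.0% of all genes. PPARδ peaks stood at 7 of 7 genes in fed livers and at 5 of 7 in fasted livers, against 18.6% and 8.69%. The genes without fasted PPARδ were *Cpt1b* and *Crat*. BCL6 peaks stood at 5 of 7 genes in fed livers, 5 of 7 in fasted livers and 6 of 7 in *Bcl6* fl/fl livers, against 28.0%, 20.6% and 30.9%. Of each list, the shuttle genes took between 0.102% (fed BCL6) and 0.375% (fasted PPARδ). The share was 0.314% of fed PPARδ peaks and 0.117% of fed PPARα peaks.

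**Figure D3:**
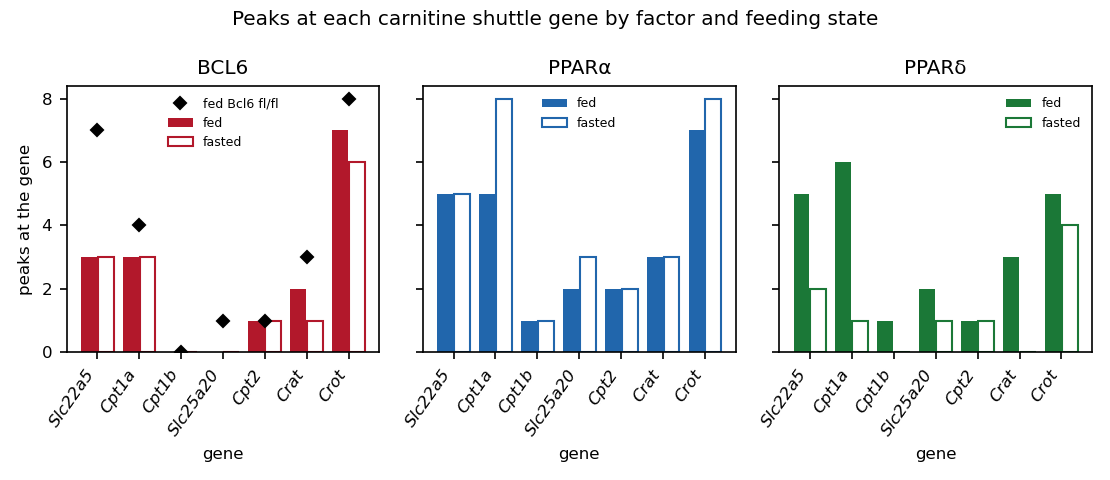
Number of peaks at each gene (y axis) for BCL6, PPARα and PPARδ, with filled bars for fed and open bars for fasted C57BL/6 livers and diamonds for fed *Bcl6* fl/fl livers. PPARδ at *Cpt1a* reads 6 in fed and 1 in fasted livers, and BCL6 at *Slc22a5* reads 3 in C57BL/6 and 7 in *Bcl6* fl/fl livers.

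The 3 factors differed in their counts between the feeding states. BCL6 went from 16 peaks at the shuttle genes in fed livers to 14 in fasted livers, a ratio of 0.875, while its whole list went from 15642 to 9613, a ratio of 0.615. PPARα went from 25 to 30 (1.20), and its list from 21410 to 29085 (1.36). PPARδ went from 23 to 9 (0.391), and its list from 7328 to 2399 (0.327). The PPAR ratios at the shuttle genes thus stood near those of the lists. The BCL6 ratio depended on the fed list and on the assignment rule. Fed *Bcl6* fl/fl livers gave 24 peaks beside the 14 of fasted C57BL/6 livers, and the whole lists held 17454 and 9613. Taking the gene with 10 kb on either side, without the nearest TSS, gave 15 fed and 10 fasted BCL6 peaks in C57BL/6 livers.

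Of the 16 sites with BCL6 in C57BL/6 livers, 14 were called in both states, 2 only when fed and 0 only when fasted. Over all BCL6 sites the shares were 43.7%, 45.3% and 11.0%. The share called in both states stayed between 84.6% and 92.9% when each gene was left out in turn, and was 8 of 9 without *Crot*. At mitochondrial β-oxidation genes 16 of 35 BCL6 sites were called in both states, and at peroxisomal ones 21 of 41. The assignment rule and the choice of fed list moved this value. When peaks were assigned to a gene with 10 kb on either side, without the nearest TSS, 9 BCL6 sites were called in both states, 6 only when fed and 1 only when fasted. With fed calls from *Bcl6* fl/fl livers, 14 of 24 BCL6 sites were called in both states, against 40.2% of the 19307 BCL6 sites counted that way in the genome.

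PPARα was called in both states at 24 of 31 sites, in fasted livers only at 6 and in fed livers only at 1. The shares over all PPARα sites were 51.3%, 35.8% and 12.8%. Taking the gene with 10 kb on either side, without the nearest TSS, gave 19, 11 and 1 sites. The fasted-only count then stood near the share of all sites. Of the 6 fasted-only sites under the main rule, 3 lay in *Cpt1a*, 2 at *Crot* and 1 in *Slc25a20*, and C57BL/6 BCL6 was at none of them. It was likewise missing at 10371 of the 11960 fasted-only PPARα sites in the genome. PPARδ was called in fed livers only at 15 of 24 sites, in both states at 8 and in fasted livers only at 1, against 70.7%, 18.7% and 10.6% of all its sites. The 8 sites with PPARδ in both states were spread over *Crot* (3), *Slc22a5* (2), *Cpt1a*, *Cpt2* and *Slc25a20* (1 each). At mitochondrial β-oxidation genes the count was 17 of 27, more than in the shuttle.

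**Figure D4:**
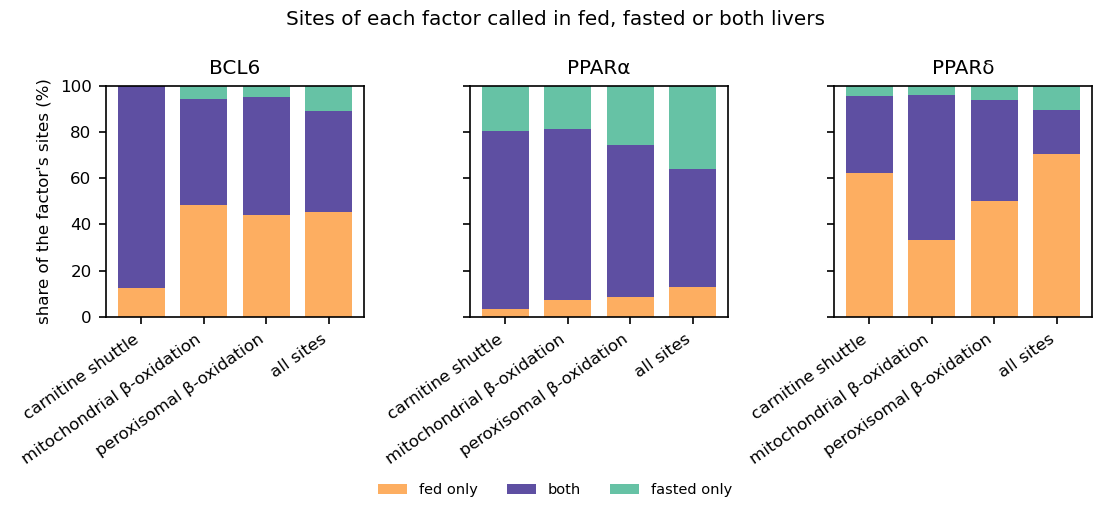
Share of each factor's sites (y axis, percent) called only when fed, in both states or only when fasted, at the shuttle genes, at genes of mitochondrial and peroxisomal β-oxidation, and over all sites. The BCL6 bar of the shuttle genes is mostly sites called in both states (14 of 16), against 43.7% of all BCL6 sites, and the PPARα bars of the 3 gene groups resemble each other.

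The factors met at many of these sites, with BCL6 taken here from C57BL/6 livers only. Adding the *Bcl6* fl/fl calls lowered the PPARα sites without BCL6 from 16 to 10. All 3 factors were called, in either state, at 13 of 35 sites, against 11.5% of all sites. PPARα and PPARδ without C57BL/6 BCL6 were called at 9, against 5.73%. PPARα without PPARδ or C57BL/6 BCL6 was called at 7, against 43.0%, and BCL6 with PPARα but not PPARδ at 2, against 22.2%. Of the 16 BCL6 sites, 15 thus carried PPARα, against 77.6% of all BCL6 sites, and 24 of 35 sites carried PPARδ, against 20.2% of all sites. At the 15 sites with BCL6 and PPARα, the centers, averaged for each factor over its C57BL/6 peaks, were between 0.5 and 58.0 bp apart. The median was 23.0 bp. In 14 of those 15 both factors were called in both states, as they were at 44.0% of the 13639 such sites in the genome. Sites of all 3 factors were then read alone, because the shares over all sites include many sites with fewer factors. There, BCL6 was called in both states at 12 of 13 shuttle sites and at 63.9% of all sites, PPARα at 13 of 13 and at 93.0%, and PPARδ at 6 of 13 and at 20.5%. At sites without C57BL/6 BCL6, PPARα was called in both states at 9 of 16 shuttle sites and at 34.0% of all sites, and PPARδ at 2 of 11 and at 16.7%.

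Counted over lists, 6 of 35 sites were called in all 7 lists, against 1.60% of all sites, and the median site was called in 4.0 lists, against 2.0. Sites called in 1 list only numbered 7, against 39.6% of all sites. They were 5 with fasted PPARα (3 in *Cpt1a*, 1 in *Slc25a20* and 1 in *Crot*), 1 with fed PPARδ in *Cpt1a* and 1 with *Bcl6* fl/fl BCL6 at *Slc22a5*.

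The *Bcl6* fl/fl livers gave a further reading of fed BCL6. All 16 sites with fed BCL6 in C57BL/6 livers were also in the *Bcl6* fl/fl list, against 69.6% of such sites in the genome. This included both sites where BCL6 was called in fed C57BL/6 livers only, against 51.1% of those in the genome. The other 14 were called in both states, as were 7677 of the 15641 fed C57BL/6 BCL6 sites in the genome. The 16 sites and the 69.6% thus differ in their mix of states. The *Bcl6* fl/fl list added 8 sites to its 16, and 37.7% of its sites in the genome lacked a fed C57BL/6 peak. Of these 8, 4 were at *Slc22a5* and 1 each at *Cpt1a*, *Slc25a20*, *Crat* and *Crot*. *Slc25a20* had BCL6 through this list alone, and *Cpt1b* had none in any list.

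Promoters, from 1000 bp upstream to 100 bp downstream of any RefSeq TSS, held 7 of the 35 sites, against 13.4% of all sites. They were 2 at *Crat* and 1 each at *Slc22a5*, *Cpt1a*, *Cpt1b*, *Slc25a20* and *Cpt2*. *Crot* had none. Relative to the curated mRNA, 16 sites lay in introns, 3 in exons, 15 upstream and 1 downstream of the gene.

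Other genes of carnitine handling and of malonyl-CoA were described from lists. Of 9 further carnitine genes, 8 were matched by symbol (not *Tmlhe*), 5 had a site, and the median was 2.0 sites. *Slc22a4*, which encodes the carnitine and ergothioneine transporter OCTN1, had 6 sites, and *Bbox1*, the last enzyme of carnitine synthesis, also had 6. *Aldh9a1*, an aldehyde dehydrogenase of the same pathway, had 5, *Slc22a16* 3 and *Slc16a9* 1. No peak was assigned to *Cpt1c*, the brain form of CPT1, nor to *Slc25a29* or *Slc22a21*. BCL6 was called in both states at 3 of their 11 BCL6 sites. All 3 malonyl-CoA genes had sites, 10 at *Acaca* and 7 at *Acacb*, which make malonyl-CoA, and 4 at *Mlycd*, which removes it. BCL6 was called in both states at 1 of their 9 BCL6 sites. PPARα peaks at these 3 genes went from 8 in fed to 13 in fasted livers.

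Of all other protein-coding genes, the nearest to *Crot* in peak counts over the 7 lists were *Gm826* and *Qsox1*, with sums of absolute differences of 1.0 and 4.0 peaks. At 5.0 peaks 5 genes were tied, of which *Dio3*, *Fbxo15* and *Pdk4* are named because they come first by symbol. *Pdk4*, a kinase that inhibits pyruvate dehydrogenase, had 6 fed and 7 fasted BCL6 peaks, 7 and 7 PPARα peaks and 6 and 3 PPARδ peaks.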

How the data were processed

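Per the labels and the study's methods, the authors aligned the reads with Bowtie to mm10, keeping reads with a unique place and at most 1 read per start position. Peaks were called by the authors with HOMER on pooled replicates against input and filtered on enrichment and false discovery rate with DESeq2 on the tags of the individual libraries. Each deposited list holds chromosome, start and end in bp, with a fixed width between 192 and 222 bp. Reads that match several places leave no peak, and depth is not given in the sources used here. The order of the peaks in a list was not used.

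From these positions, peaks were assigned with mRNA start sites and gene bodies of RefSeq on GRCm38, the assembly of mm10, which also gave all sequences. Distances and exon or intron numbers refer to the curated mRNA of each gene. Python 3.11.15 with pandas 2.3.3 was used, and joining, assignment and element search were checked on simulated data. The samples of a list are pooled, so no spread between replicates can be given. The members and gene lists were chosen with earlier results of these data known. Named genes were all 7 members, fixed lists of carnitine, malonyl-CoA and β-oxidation genes, and 5 genes with peak counts like those of the member with the most sites, with ties broken by symbol. The knockout livers, histone acetylation and inputs were left out, since the lists used hold none of them. Alternatives covered the reach and the assignment rule, the joining distance, the fed BCL6 list, the element windows and mismatches, and the promoter bounds.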

Additional observations from a re-analysis of the deposited data

How the results depend on the processing

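Of 146 values recomputed under the alternatives, 122 stayed within 1.5 times the value reported and 24 did not. With a reach of 20 kb, which drops the distal *Crot* cluster, the shuttle genes held 10 fed and 8 fasted BCL6 peaks and 5 fasted PPARδ peaks, with 8 BCL6 sites and 5 PPARδ sites called in both states and 0 PPARδ sites only when fasted. BCL6 met PPARα there at 9 sites and all 3 factors met at 8. Taking the gene with 10 kb on either side, without the nearest TSS, gave 4 fasted PPARδ peaks and 6, 9 and 1 BCL6 sites called only when fed, in both states and only when fasted. It also gave 1, 19 and 11 PPARα sites called only when fed, in both states and only when fasted. Over all PPARα sites the shares were 12.8%, 51.3% and 35.8%. For PPARδ it gave 4 sites in both states and 0 only when fasted. Joining centers within 100 bp gave 2 PPARα sites called in fed livers only. Fed BCL6 calls from *Bcl6* fl/fl livers gave 10 BCL6 sites called in fed livers only, and adding that list to the BCL6 calls left 10 PPARα sites without BCL6. DR1 matches stood at 5 sites in windows of 50 bp (4.23% of all sites), at 1 with 1 mismatch (3.06%) and at 23 with 3 (40.3%). With 1 mismatch the count was thus no longer above the share of all sites. The BCL6 element stood at 3 sites in windows of 400 bp (17.0%) and at 0 without a mismatch (1.23%). Promoters from 5000 bp upstream to 1000 bp downstream held 11 sites. The 13.4% of all sites belongs to the narrower bounds and cannot be set beside this count. The causes of the other moves were not tested. No paired analysis was possible because each list pools its 3 replicates and the columns carry no replicate. For the same reason no replicate could be left out.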

Other observations

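The bases before the DR1 matches were looked at after the matches had been printed. In 5 of the 9 matches (*Slc22a5* intron 1, *Cpt1a* intron 1, *Cpt1b*, *Slc25a20* at the TSS and *Crot* 31.5 kb upstream) the 4 bases directly 5′ of the element read A, then A or T, then G and T. Over all 5299 sites with a match, 169 had these bases there, or 3.19%. At mitochondrial β-oxidation genes 11 of 60 sites held a DR1 match and 1 of these had the same bases before it. At peroxisomal β-oxidation genes the counts were 16 of 86 sites and 1 match. With C in place of G in these bases, the count was 0 of the 9 matches, against 2.49% of all sites with a match. No test was made of the pattern with G, which was seen in the same sites that it is counted on.

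The next site on either side of each gene's sites, 14 in all, was called in 1 to 3 lists in 12 cases. Over all sites, 39.6%, 19.9% and 13.3% were called in 1, 2 and 3 lists. The other 2 of the 14 were called in 6 lists, as were 5.67% of all sites. The one upstream of *Crat* lay in the neighboring gene *Ptpa*, and that upstream of *Slc22a5* lay in *Slc22a4*.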
